A study of Homo sapiens with 16 samples.

Results

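The immediate early response genes described here are 10 named genes: EGR1, FOS, FOSL1, JUN, JUNB, IER2, IER3, ATF3, MYC and DUSP1. Each was represented by the row of the array table whose platform annotation gave its symbol alone, every member had 1 such row, and all 10 were found among 14040 genes with a single symbol. Expression was measured on 16 single-colour arrays in U-87MG, an established human glioblastoma line grown in complete DMEM. The cells received indole-3-pyruvate (I3P) at 25 µM together with SR1 at 1 µM (I3P+SR1), I3P alone at 25 µM, SR1 alone at 1 µM, or the carrier DMSO at 0.1%. I3P is a keto acid made from tryptophan, and SR1 is an antagonist of the aryl hydrocarbon receptor (AHR), which turns on its target genes when a ligand binds it. The series asks whether I3P drives AHR-dependent transcription. Each condition held 4 arrays, labelled biological replicates 1 to 4, with 1 array of every condition under each replicate number. All groups come from this single line, and the length of treatment is not given in the sources used here.

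Immediate early genes are switched on within minutes of a growth factor or stress signal, without new protein synthesis, when kinases of the ERK, JNK and p38 cascades activate factors already bound to DNA, such as SRF with ELK1, or CREB. Their messages are short-lived, and the phosphatases among their products damp the same kinases in a negative feedback loop. FOS, FOSL1, JUN, JUNB and ATF3 encode basic leucine zipper proteins of AP-1 and related dimers, EGR1 a zinc finger factor, MYC a regulator of growth genes, IER2 a nuclear protein, IER3 a regulator of apoptosis and ERK signalling, and DUSP1 a phosphatase that switches MAP kinases off. FOSL1 is a prominent AP-1 subunit of mesenchymal glioma cells.

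Values are log2 expression after robust multi-array averaging (RMA), so a difference of 1 is a doubling, and array medians lay between 8.26 and 8.30. RNA came from whole cultures, so a change in level per cell and a change in the share of cells with the message cannot be told apart. The I3P array of replicate 1 stood apart. Across genes, its Pearson r with each remaining array ran from 0.877 to 0.910, whereas pairs that left it out gave 0.921 to 0.979. As a check of the treatments, CYP1B1, a widely used AHR target gene, was at 10.84 ± 0.34 in I3P+SR1, 11.20 ± 0.16 in I3P, 8.28 ± 0.11 in SR1 and 10.85 ± 0.10 in DMSO (SD, n = 4 each). It was lowest with SR1 in every replicate number. In I3P against DMSO its log2 change was 0.35. The other AHR targets listed, CYP1A1, AHRR, TIPARP and NQO1, changed there by 0.12, 0.15, 0.56 and 0.10. None of these passed limma's adjustment at 0.05. In SR1 against DMSO the other targets changed by -1.92, -1.44, -1.34 and -0.35. AHRR and TIPARP passed there with group means alone, as did CYP1B1. The conditions were taken as labelled. Whether the labels SR1 and I3P+SR1 were exchanged throughout could not be checked from these values. Of 10 markers fixed for U-87MG and glioma, 7 had a row. FN1, VIM and TNC lay above percentile 99 of all genes by mean value (99.9, 99.8 and 99.8), CD44 and CHI3L1 at percentiles 86.2 and 96.5, and GFAP and NES at 37.2 and 22.8. Percentiles are approximate, since rows differ in brightness. Markers of blood, epithelial, endothelial and neuronal cells had 9 rows, at percentiles 9.96 to 64.5 except KRT5 at 85.6. Their mean per array lay between 8.12 and 8.35 in I3P+SR1, 8.11 and 8.38 in I3P, 8.15 and 8.40 in SR1, and 8.03 and 8.28 in DMSO. Their part in the results was not tested.

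IER3 was lower with SR1 alone than in any other condition. In I3P+SR1 its log2 values for replicates 1 to 4 were 10.94, 10.89, 10.89 and 11.24, in I3P alone 11.60, 10.997, 10.96 and 11.46, in SR1 alone 10.16, 10.19, 10.08 and 10.49, and in DMSO 11.16, 10.84, 10.77 and 11.10. In every replicate number the I3P array was the highest and the SR1 array the lowest of the 4 conditions, an order that 0.363% of all genes showed. The SR1 arrays lay below all arrays of the other conditions, and the share of all genes so separated was not counted. It cannot exceed the 1.67% of all genes with SR1 lowest of the 4 conditions in every replicate number. With the antagonist alone IER3 was at 10.23 ± 0.18 in SR1 and 10.97 ± 0.19 in DMSO (SD, n = 4 each), a log2 change of -0.74 (SE 0.16, 95% interval -1.07 to -0.41), or 1.67-fold. Within replicate numbers 1 to 4 the differences were -1.004, -0.65, -0.69 and -0.61. limma's adjusted p over all genes was 0.13 with group means alone, which did not pass at 0.05 (0.164% of all genes did), and 0.0064 with the replicate number as a block, which did (0.321% of all genes).

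**Figure D1:**
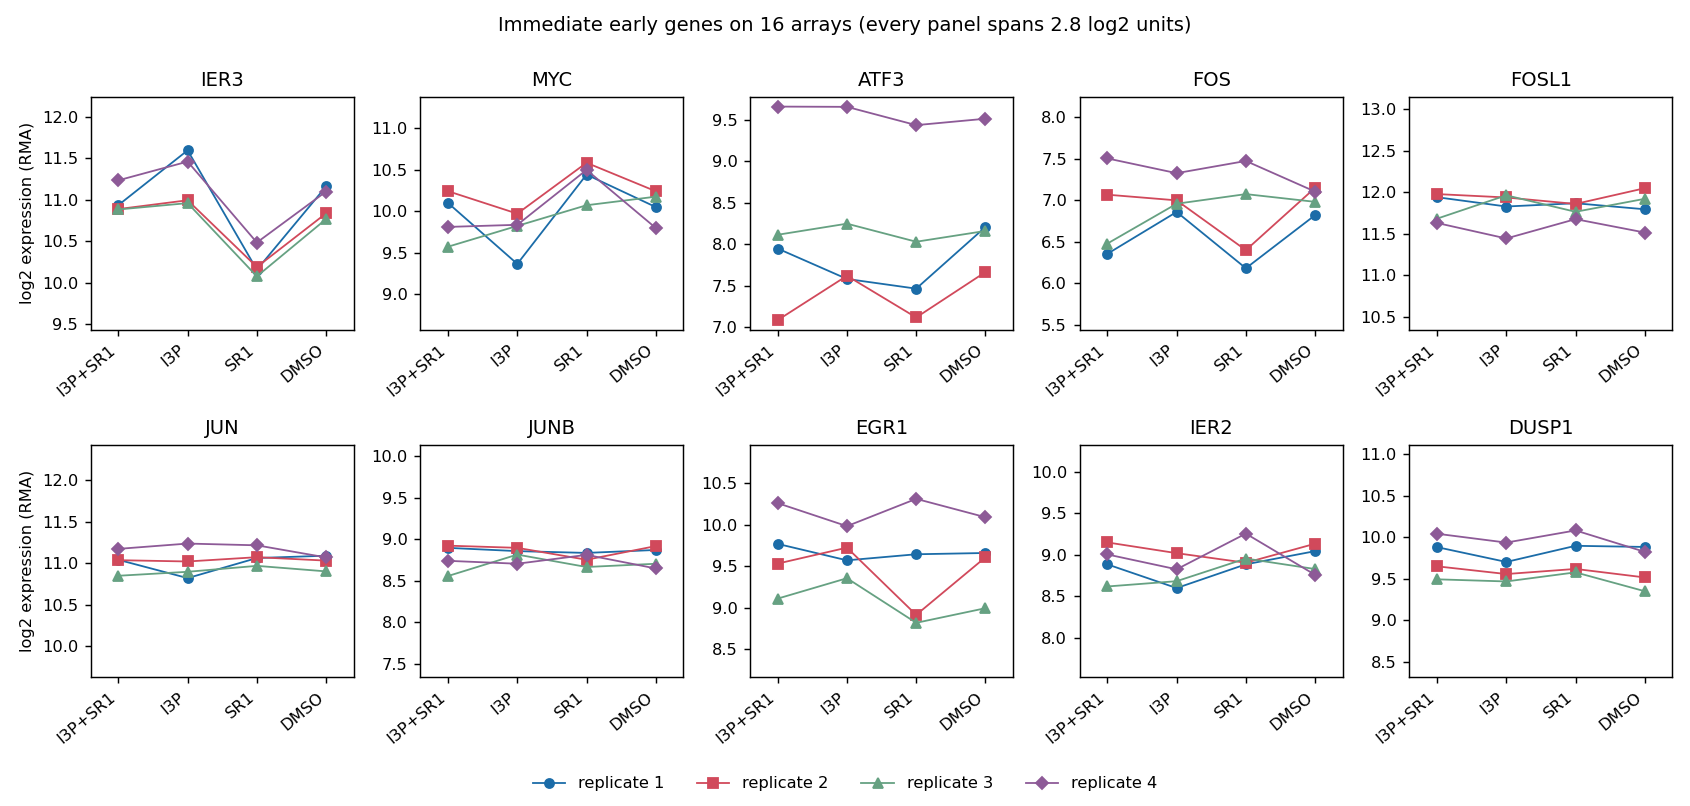
Log2 expression (RMA, vertical axis, every panel with the same span) of the 10 genes in the 4 conditions (horizontal axis), with 1 marker per array and lines joining the arrays of a replicate number. IER3 dips in SR1 in all 4 replicates, MYC peaks in SR1 in 3 of them, and ATF3 and EGR1 are set apart by replicate 4 in every condition.

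With I3P added to the antagonist, IER3 was at 10.99 ± 0.17 in I3P+SR1, against 10.23 ± 0.18 in SR1 (SD, n = 4 each). The log2 change was 0.76 (SE 0.16, 95% interval 0.42 to 1.09), or 1.69-fold, with differences of 0.78, 0.70, 0.81 and 0.75 within replicate numbers 1 to 4, all higher, as for 8.75% of all genes. Adjusted p by limma was 0.10 with group means alone and 0.0065 with the replicate block. The I3P+SR1 and SR1 arrays did not overlap, upwards, as was so for 1.53% of all genes, and the SR1 and DMSO arrays did not overlap, downwards, as was so for 1.23%. Between I3P+SR1 and DMSO, IER3 differed by 0.019 (95% interval -0.31 to 0.35). These comparisons share the SR1 or DMSO arrays. Within series SMI of the array titles (replicates 3 and 4) and series SLI (replicates 1 and 2), the changes were 0.78 and 0.74 in I3P+SR1 against SR1, and -0.65 and -0.83 in SR1 against DMSO.

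I3P without the antagonist gave a smaller difference in IER3. The level was 11.25 ± 0.32 in I3P and 10.97 ± 0.19 in DMSO (SD, n = 4 each), a log2 change of 0.29 (SE 0.16, 95% interval -0.047 to 0.62, adjusted p = 1.0 by limma, and 0.77 with the replicate block). With the replicate block the 95% interval was 0.058 to 0.51 for this single gene. All 4 replicate numbers were higher, by 0.43, 0.16, 0.19 and 0.36, as were 6.10% of all genes. Without the I3P array of replicate 1 the change was 0.17 with group means alone and 0.18 with the replicate block. I3P+SR1 against I3P gave -0.27 (SE 0.16, adjusted p = 1.0 by limma), lower in 4 of 4 replicate numbers, as was so for 6.18% of all genes. With the replicate block its 95% interval was -0.50 to -0.039, and adjusted p by limma was 0.71. Without the I3P array of replicate 1 this change was -0.15 with group means alone and -0.16 with the replicate block. The change with I3P in the presence of SR1 exceeded that in its absence by 0.47 (SE 0.22), with adjusted p = 1.0 by limma, and 0.99 with the replicate block, so a difference between the 2 responses did not pass. SR1 arrays were compared with arrays lacking SR1 in 8 pairs that share no array (SR1 against DMSO and I3P+SR1 against I3P), and IER3 was lower in all 8, as was 1.07% of all genes. In the 8 pairs that add I3P (I3P against DMSO and I3P+SR1 against SR1), IER3 was higher in all 8, as was 0.990% of all genes.

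**Figure D2:**
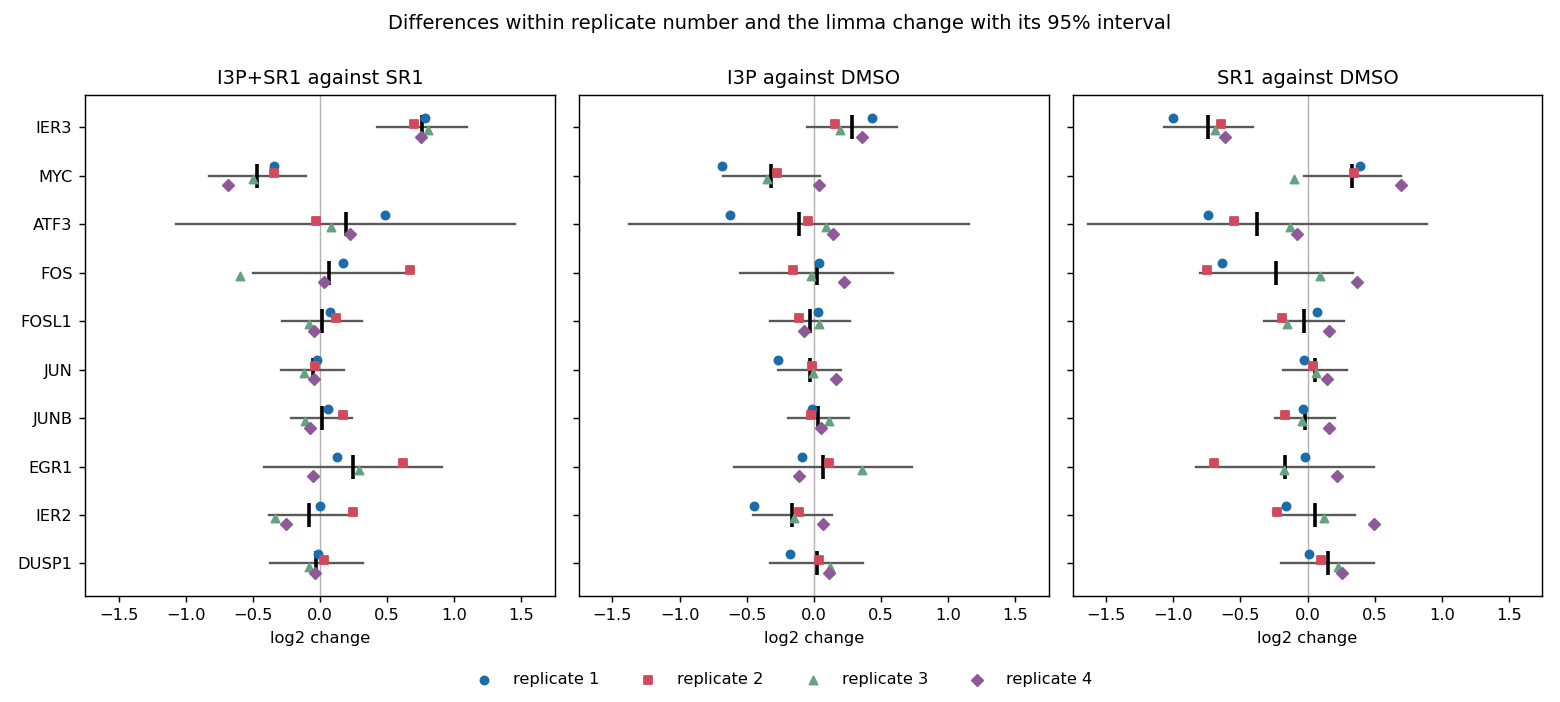
Log2 change (horizontal axis) of the 10 genes in I3P+SR1 against SR1, I3P against DMSO and SR1 against DMSO, with 1 marker per replicate number, a vertical bar for the change in limma and a line for its 95% interval with group means alone. The intervals of IER3 in I3P+SR1 against SR1 (0.42 to 1.09) and in SR1 against DMSO (-1.07 to -0.41), and of MYC in I3P+SR1 against SR1 (-0.83 to -0.11), exclude 0 for a single gene.

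The 5 genes whose profile was most like that of IER3 over the 16 arrays, after subtracting the mean of each replicate number, were PITPNC1 (Pearson r = 0.983), SMIM3 (0.977), TIPARP (0.967), INSIG1 (0.963) and GLIS1 (0.960). PITPNC1 encodes a phosphatidylinositol transfer protein, TIPARP an ADP-ribosyltransferase that is an AHR target, INSIG1 a sterol sensor of the endoplasmic reticulum and GLIS1 a zinc finger factor. The arrays of a condition share their treatment, so these values describe likeness and carry no test. The genes were picked for likeness to IER3 on the same arrays, which favours a shared low in SR1. Over the 12 arrays left without those of SR1 alone, the r values were lower, at 0.914, 0.884, 0.824, 0.839 and 0.754 in the same order. In SR1 against DMSO, PITPNC1 had a log2 change of -0.91 and TIPARP of -1.34, which passed by limma with adjusted p of 0.0026 and 0.017. SMIM3 was at -0.34, INSIG1 at -1.04 and GLIS1 at -0.68, which did not pass with group means alone (adjusted p of 0.71, 0.053 and 1.0).

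**Figure D3:**
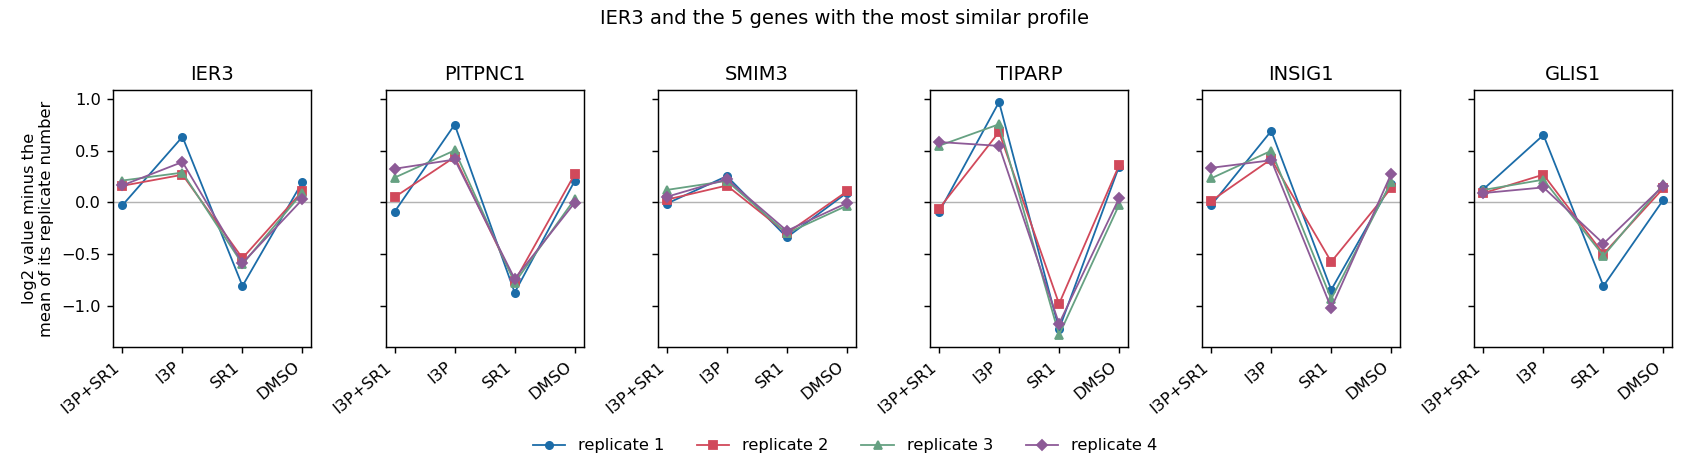
Log2 value minus the mean of its replicate number (vertical axis) in the 4 conditions (horizontal axis) for IER3 and the 5 genes most like it, with 1 line per replicate number. In each panel the 4 SR1 points are the lowest, which the choice of genes like IER3 favours. The panels differ in depth, from SMIM3 with a log2 change of -0.34 in SR1 against DMSO to TIPARP with -1.34.

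IER2 shares the naming of IER3 but not its pattern. Its values for replicates 1 to 4 were 8.89, 9.15, 8.62 and 9.01 in I3P+SR1, 8.60, 9.02, 8.68 and 8.83 in I3P, 8.89, 8.91, 8.96 and 9.26 in SR1, and 9.05, 9.13, 8.83 and 8.76 in DMSO, and all 4 groups overlapped. The log2 change was 0.059 in SR1 against DMSO (95% interval -0.24 to 0.36), -0.086 in I3P+SR1 against SR1 (-0.38 to 0.21) and -0.16 in I3P against DMSO (-0.46 to 0.14). SR1 against DMSO differed in sign between the title series, at -0.16 and -0.23 in replicates 1 and 2 (SLI) and 0.13 and 0.50 in replicates 3 and 4 (SMI).

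MYC ran opposite to IER3 in the group means. Its values for replicates 1 to 4 were 10.10, 10.24, 9.57 and 9.81 in I3P+SR1, 9.37, 9.97, 9.82 and 9.84 in I3P, 10.44, 10.58, 10.07 and 10.50 in SR1, and 10.05, 10.24, 10.18 and 9.80 in DMSO. The SR1 arrays overlapped the I3P+SR1 and DMSO arrays through replicate 3. I3P+SR1 was lower than SR1 in 4 of 4 replicate numbers, by -0.34, -0.34, -0.50 and -0.69, as was so for 10.9% of all genes. The log2 change was -0.47 (SE 0.17, 95% interval -0.83 to -0.11), with an unadjusted p of 0.014, a level under 0.05 that 3.70% of all genes reached. Adjusted p by limma was 1.0, and 0.39 with the replicate block, so this difference did not pass. SR1 against DMSO gave 0.33 (SE 0.17, 95% interval -0.029 to 0.69, adjusted p = 1.0 by limma), positive in 3 of 4 replicate numbers. I3P against DMSO gave -0.32 (SE 0.17, 95% interval -0.68 to 0.044, adjusted p = 1.0 by limma), negative in 3 of 4. With the replicate block the MYC intervals were 0.0071 to 0.66 in SR1 against DMSO and -0.64 to 0.0081 in I3P against DMSO. Adjusted p by limma with the block was 0.79 and 0.77, so neither passed. In the 8 pairs that add I3P, MYC was lower in 7, as was JUN, whose changes were only -0.030 (I3P against DMSO) and -0.055 (I3P+SR1 against SR1). The share of all genes lower in 7 was not counted. In the 8 pairs that add SR1, MYC was higher in 5. Without the I3P array of replicate 1, which held the lowest MYC value, I3P against DMSO gave -0.19. Within series SMI and series SLI, I3P+SR1 against SR1 gave -0.59 and -0.34.

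Of the AP-1 genes, FOSL1, JUN and JUNB were nearly flat across the 4 conditions. FOSL1 was at 11.81 ± 0.18 in I3P+SR1, 11.79 ± 0.24 in I3P, 11.79 ± 0.09 in SR1 and 11.82 ± 0.23 in DMSO (SD, n = 4 each). Its log2 changes were 0.016 in I3P+SR1 against SR1, -0.027 in I3P against DMSO and -0.028 in SR1 against DMSO, with 95% intervals between -0.33 and 0.31. JUN had values of 11.04, 11.03, 10.85 and 11.17 in I3P+SR1, 10.82, 11.02, 10.89 and 11.23 in I3P, 11.06, 11.07, 10.97 and 11.21 in SR1, and 11.09, 11.03, 10.90 and 11.07 in DMSO. JUN was lower in I3P+SR1 than in SR1 in 4 of 4 replicate numbers, as was so for 10.9% of all genes. It was lower by no more than 0.12, with a log2 change of -0.055 (95% interval -0.29 to 0.18). Its change was -0.030 in I3P against DMSO and 0.056 in SR1 against DMSO.

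Promoter windows were searched for the sites of factors that act on immediate early genes or on AHR targets. They run from 250 bases before to 50 after the start site, 8 windows of 7 members matched in the RefSeq table (build GRCh38.p14, ATF3 with 2 start sites), and both strands were searched. The 3 windows printed are those of EGR1, DUSP1 and JUNB. EGR1 and DUSP1 were ordered alike by replicate number, as was IER3, which had no window. How many other genes share that order was not counted, and a link with the promoters was not tested. JUNB held the AHR core most often. Capitals mark the CArG box that SRF binds, the cAMP response element TGACGTCA, the AHR core GCGTG and the TATA box TATAAA.
EGR1 (chr5:138465229-138465528, plus strand): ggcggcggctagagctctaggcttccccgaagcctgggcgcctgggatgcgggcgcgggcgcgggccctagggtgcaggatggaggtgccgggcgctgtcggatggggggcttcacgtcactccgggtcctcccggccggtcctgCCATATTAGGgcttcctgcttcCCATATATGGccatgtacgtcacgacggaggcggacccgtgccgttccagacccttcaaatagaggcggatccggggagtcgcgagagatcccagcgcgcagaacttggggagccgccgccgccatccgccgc
DUSP1 (chr5:172771146-172771445, minus strand): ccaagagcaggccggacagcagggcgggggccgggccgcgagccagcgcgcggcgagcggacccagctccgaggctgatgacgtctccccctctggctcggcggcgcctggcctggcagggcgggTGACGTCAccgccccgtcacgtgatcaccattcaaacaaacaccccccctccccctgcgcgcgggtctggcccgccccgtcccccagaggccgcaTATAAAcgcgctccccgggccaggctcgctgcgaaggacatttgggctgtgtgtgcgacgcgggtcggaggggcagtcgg
JUNB (chr19:12791236-12791535, plus strand): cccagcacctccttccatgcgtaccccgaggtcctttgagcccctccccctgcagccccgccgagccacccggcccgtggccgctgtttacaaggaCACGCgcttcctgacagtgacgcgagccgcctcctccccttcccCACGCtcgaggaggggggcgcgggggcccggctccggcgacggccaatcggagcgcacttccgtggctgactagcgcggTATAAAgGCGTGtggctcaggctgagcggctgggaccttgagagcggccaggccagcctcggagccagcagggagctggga

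EGR1 held a CArG box at 2 places, at positions -105 and -83 from the start site, and no other member window held one, against 1.29% of all 35116 windows. DUSP1 held TGACGTCA, at position -125, found in 1.85% of all windows. The shorter site TGACG, which TGACGTCA contains, was in 6 of 8 member windows (DUSP1, EGR1, FOS, IER2, JUN and JUNB), against 24.6% of all. JUNB held GCGTG at 3 places and FOS, IER2 and JUN at 1 place each, so 4 of 8 member windows had it, against 36.5% of all windows. The EGR1 site GCGTGGGCG, which contains the AHR core, was in 0 of 8 member windows and in 0.795% of all, and the AP-1 site TGANTCA in 0 of 8 and 7.71%. TATAAA was in 4 of 8 member windows and in 11.5% of all. It lay at -30 in DUSP1, -31 in JUNB, -33 in FOS and -230 in 1 window of ATF3. A match is only a run of letters, and sites outside these windows were not searched, so a member without a match may hold the site elsewhere. IER3, FOSL1 and MYC were not matched in this table.

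JUNB, a JUN family member that often opposes JUN, was at 8.78 ± 0.17 in I3P+SR1, 8.82 ± 0.08 in I3P, 8.76 ± 0.08 in SR1 and 8.78 ± 0.13 in DMSO (SD, n = 4 each). Its changes were 0.013 in I3P+SR1 against SR1 (95% interval -0.21 to 0.24), 0.033 in I3P against DMSO (-0.19 to 0.26) and -0.019 in SR1 against DMSO (-0.24 to 0.21). These intervals are the narrowest of the 10 genes with group means alone. The JUNB values overlapped between all 4 conditions.

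FOS was dim, with a mean at percentile 3.25 of all genes, where RMA compresses differences. Its values were 6.36, 7.07, 6.48 and 7.50 in I3P+SR1, 6.86, 6.9996, 6.96 and 7.33 in I3P, 6.18, 6.40, 7.07 and 7.47 in SR1, and 6.82, 7.15, 6.98 and 7.11 in DMSO. The spread between arrays was wide in I3P+SR1 (SD 0.53) and SR1 (SD 0.60) and narrow in I3P (SD 0.20) and DMSO (SD 0.15). SR1 against DMSO ran in opposite directions in the 2 series of array titles, as it did for IER2. For FOS it was at -0.64 and -0.75 in replicates 1 and 2 (SLI) and 0.093 and 0.37 in replicates 3 and 4 (SMI). The log2 change over all 4 was -0.23 (95% interval -0.80 to 0.34). I3P+SR1 against SR1 gave 0.069 (-0.50 to 0.64) and I3P against DMSO 0.022 (-0.55 to 0.59).

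ATF3, a stress-responsive factor, differed more between replicates than between treatments. Its values for replicates 1 to 4 were 7.95, 7.09, 8.11 and 9.66 in I3P+SR1, 7.58, 7.62, 8.25 and 9.66 in I3P, 7.47, 7.12, 8.03 and 9.44 in SR1, and 8.21, 7.67, 8.16 and 9.51 in DMSO. Replicate 4 lay above all other arrays in every condition. SR1 was lower than DMSO in 4 of 4 replicate numbers, by -0.74, -0.55, -0.13 and -0.077, as was so for 8.12% of all genes. The log2 change was -0.37 (95% interval -1.64 to 0.89) with group means alone and had an interval of -0.68 to -0.066 with the replicate block, where adjusted p by limma was 0.63. I3P+SR1 against SR1 gave 0.19 (SE 0.60) and I3P against DMSO -0.11 (SE 0.60), neither of which passed.

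EGR1 was likewise ordered by replicate number, with values of 9.77, 9.53, 9.11 and 10.26 in I3P+SR1, 9.57, 9.72, 9.35 and 9.98 in I3P, 9.64, 8.91, 8.82 and 10.31 in SR1, and 9.66, 9.61, 8.99 and 10.09 in DMSO. The 4 groups overlapped throughout. Its log2 changes were 0.25 in I3P+SR1 against SR1 (95% interval -0.42 to 0.91), 0.070 in I3P against DMSO (-0.59 to 0.74) and -0.17 in SR1 against DMSO (-0.83 to 0.50). These intervals are with group means alone. With the replicate block they were -0.085 to 0.58, -0.26 to 0.40 and -0.50 to 0.16 in the same order. In SR1 against DMSO, the replicate 2 difference of -0.69 stood beside differences of -0.015, -0.18 and 0.22 in replicates 1, 3 and 4.

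DUSP1 had values of 9.88, 9.65, 9.49 and 10.04 in I3P+SR1, 9.70, 9.55, 9.46 and 9.93 in I3P, 9.89, 9.62, 9.57 and 10.08 in SR1, and 9.88, 9.51, 9.35 and 9.82 in DMSO. SR1 exceeded DMSO in 4 of 4 replicate numbers, by 0.014, 0.10, 0.23 and 0.26, as was so for 9.24% of all genes. I3P+SR1 exceeded I3P in 4 of 4, by 0.18, 0.093, 0.026 and 0.11, as was so for 5.80%. In the 8 pairs that add SR1 and share no array DUSP1 was thus higher in all 8, as was 1.01% of all genes. The changes were small, at 0.15 (SE 0.16, adjusted p = 1.0 by limma, 0.88 with the replicate block) and 0.10 (SE 0.16, adjusted p = 1.0 by limma, 0.77 with the replicate block), and neither passed. I3P+SR1 against SR1 gave -0.027 (95% interval -0.37 to 0.32) and I3P against DMSO 0.022 (-0.32 to 0.37) with group means alone. With the replicate block these intervals were -0.19 to 0.14 and -0.14 to 0.19.

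Replicate number carried most of the spread of most members. It took 93.9% of the sum of squares over the 16 arrays for ATF3, 85.9% for DUSP1, 79.7% for EGR1, 74.1% for FOSL1, 67.7% for JUN, 61.1% for JUNB, 56.2% for FOS and 33.6% for IER2, against a mean of 38.03% over all genes. Condition took 79.4% for IER3 and 54.9% for MYC, against a mean of 17.4% over all genes and at most 19.0% for the other 8. All 4 replicate 4 arrays lay above the other 12 arrays for EGR1 and ATF3, as for 4.49% of all genes, and below them for FOSL1, as for 4.22%. EGR1, DUSP1 and IER3 had the same order of replicate means. In replicates 4, 1, 2 and 3, EGR1 was at 10.16, 9.66, 9.44 and 9.07 and DUSP1 at 9.97, 9.84, 9.58 and 9.47. IER3 was at 11.07, 10.96, 10.73 and 10.67. The share of all genes with this order was not counted. ATF3 averaged 8.85 ± 0.77 in series SMI and 7.59 ± 0.38 in series SLI (SD over 8 arrays each), and replicate 3 of SMI, at 8.14, lay closer to replicate 1 of SLI, at 7.80, than to replicate 4 of SMI, at 9.57.

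**Figure D4:**
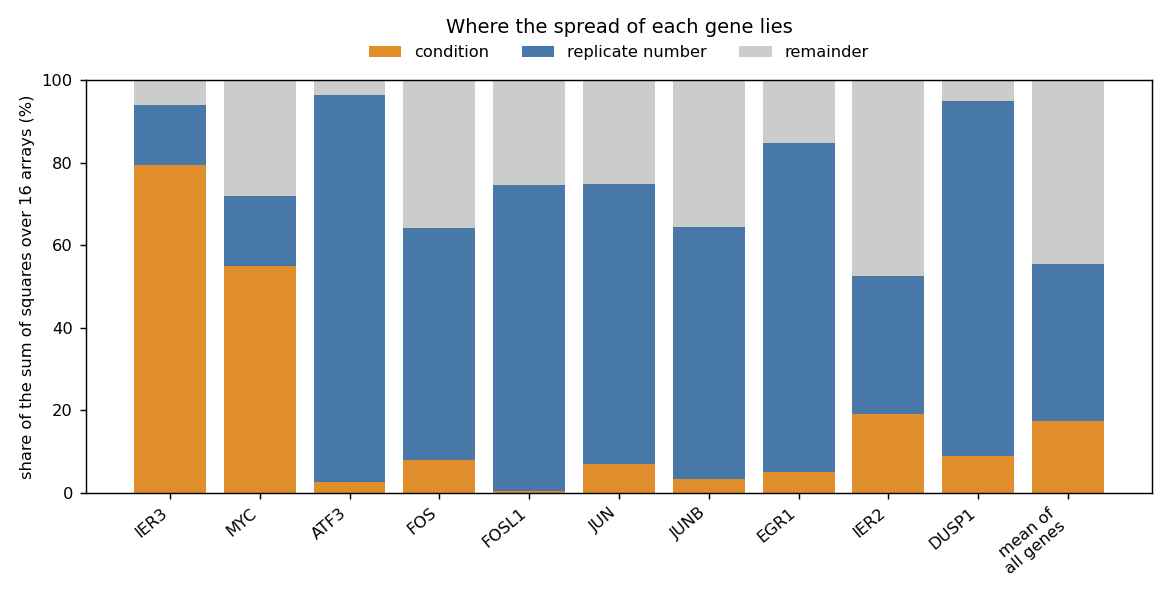
Share of the sum of squares over 16 arrays (vertical axis, percent) that lay between conditions, between replicate numbers and in the remainder, for the 10 genes and as the mean of all genes. Condition takes 79.4% for IER3 and 54.9% for MYC, and replicate number takes 93.9% for ATF3.

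Over the whole list, 0 of 10 members passed in any of the 6 comparisons with group means alone by limma. In SR1 against DMSO, 4 were higher and 6 lower, with a median log2 change of -0.023, against 0.0025 over all genes, where 0.164% of genes passed. The replicate block called 1 of 10 members (IER3, lower), against 0.321% of all genes. In I3P+SR1 against SR1, 6 were higher and 4 lower, with a median of 0.014 against -0.0092 over all genes, where 0.114% passed. The block again called 1 of 10 (IER3, higher) and 0.321% of all genes. In I3P against DMSO, 5 were higher and 5 lower, the median was -0.0026 against -0.017 over all genes, and 0 of 14040 genes passed with or without the block, while 2.81% had an unadjusted p under 0.05 with group means alone, none of them a member. In I3P+SR1 against I3P the members ran from -0.27 (IER3) to 0.18 (MYC), and without the I3P array of replicate 1 these members were at -0.15 (IER3) and 0.054 (MYC). The members ran in I3P+SR1 against DMSO from -0.18 (ATF3) to 0.12 (DUSP1). In both comparisons 0 of 14040 genes passed by limma, with or without the block, while 3.32% and 1.38% of all genes had an unadjusted p under 0.05 with group means alone.

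In the test of whether the change with I3P differed between cells with and without SR1, the members ran from -0.15 (MYC) to 0.47 (IER3), and 0 of 10 passed by limma, against 0.00712% of all genes. Without the I3P array of replicate 1 the values were -0.28 (MYC) and 0.59 (IER3). IER3 was the member most often under an unadjusted p of 0.05. With group means alone, 1 of 10 members (IER3) had an unadjusted p under 0.05 in SR1 against DMSO, against 2.93% of all genes. With the replicate block 3 had one in SR1 against DMSO (IER3, ATF3 and MYC), against 6.17% of all genes. In the same fit 2 had one in I3P+SR1 against SR1 (IER3 and MYC, against 7.56%). IER3 alone had one in I3P against DMSO (1 of 10, against 6.28%) and in I3P+SR1 against I3P (1 of 10, against 6.92%). IER3 alone also had one in the test of the difference between the responses to I3P (1 of 10, against 3.96%). That difference had a 95% interval of 0.15 to 0.79 with the block and was positive in 4 of 4 replicate numbers, as was so for 5.85% of all genes. Other than IER3, no member passed after adjustment by limma in any of these comparisons. In I3P against DMSO, 0 of 10 were lower in all 4 replicate numbers, against 6.88% of all genes, and 0 of 10 had I3P arrays wholly below the DMSO arrays, against 0.577%. Higher calls after adjustment in SR1 against DMSO were 0 of 10 with group means alone, against 0.00712% of all genes, and 0 of 10 with the block, against 0.0356%. Lower calls with the block in I3P+SR1 against SR1 were 0 of 10, against 0.0356% of all genes.

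In 6 lists of genes around the response, no gene passed in any of the 6 comparisons by limma, with or without the replicate block. The lists were chosen with earlier results of these data known. Their counts beside all genes are therefore a description, and no list was tested. Among 12 measured AP-1 and basic leucine zipper partners, such as FOSB and FOSL2, 5 were higher and 7 lower in SR1 against DMSO (median -0.034). Among 37 other immediate early genes, 29 were higher and 8 lower in SR1 against DMSO (median 0.071), where 50.8% of all genes were higher. In I3P+SR1 against SR1, 15 of the 37 were higher (median -0.071), and in I3P against DMSO 12 were higher (median -0.062), where 47.1% and 45.6% of all genes were. The genes named in the following sentences were chosen after their values were seen. PLK2, a stress-induced kinase, had a change of 0.59 (SE 0.21) in SR1 against DMSO and -0.54 (SE 0.21) in I3P+SR1 against SR1, and CTGF, a matricellular gene of the YAP and TGF-beta pathways, 0.53 (SE 0.23) and -0.66 (SE 0.23). Their adjusted p by limma was 1.0 with group means alone in both comparisons, and with the block 0.057 and 0.088 for PLK2 and 0.26 and 0.093 for CTGF.

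Among 19 phosphatases and ERK feedback genes, 9 were higher and 10 lower in SR1 against DMSO (median -0.016). DUSP5 and DUSP6, which both encode phosphatases that act on ERK, had changes of opposite sign. DUSP5 had 0.57 (SE 0.18) in SR1 against DMSO and -0.57 (SE 0.18) in I3P+SR1 against SR1, and DUSP6 had -0.33 (SE 0.16) and 0.38 (SE 0.16). Each of these kept its direction in 4 of 4 replicate numbers, and none passed. Of all genes, 9.24% were higher and 8.12% lower in 4 of 4 in SR1 against DMSO, and 8.75% and 10.9% in I3P+SR1 against SR1. From the same list, DUSP7, DUSP10, DUSP14 and DUSP16 were also higher in 4 of 4 in SR1 against DMSO, and SPRY2 and PHLDA1 lower. Of 27 kinase and SRF pathway genes, 6 were higher and 21 lower in SR1 against DMSO (median -0.083). RPS6KA2, which encodes the ribosomal S6 kinase RSK3, had the largest change of that list, -0.72 (SE 0.18, adjusted p = 0.35 by limma, 0.087 with the block), and 0.53 (SE 0.18) in I3P+SR1 against SR1.

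Of 10 MYC partners, 6 were higher and 4 lower in SR1 against DMSO (median 0.0045), with changes between -0.25 for MYCL1 and 0.23 for MLXIP. Of 19 delayed targets of AP-1, EGR1 and MYC, 14 were higher and 5 lower in SR1 against DMSO (median 0.067), and 5 higher and 14 lower in I3P+SR1 against SR1 (median -0.11). MMP1, a collagenase with a well-known AP-1 element, had -0.84 (SE 0.57) and 0.75 (SE 0.57) in these comparisons and did not pass.

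**Figure D5:**
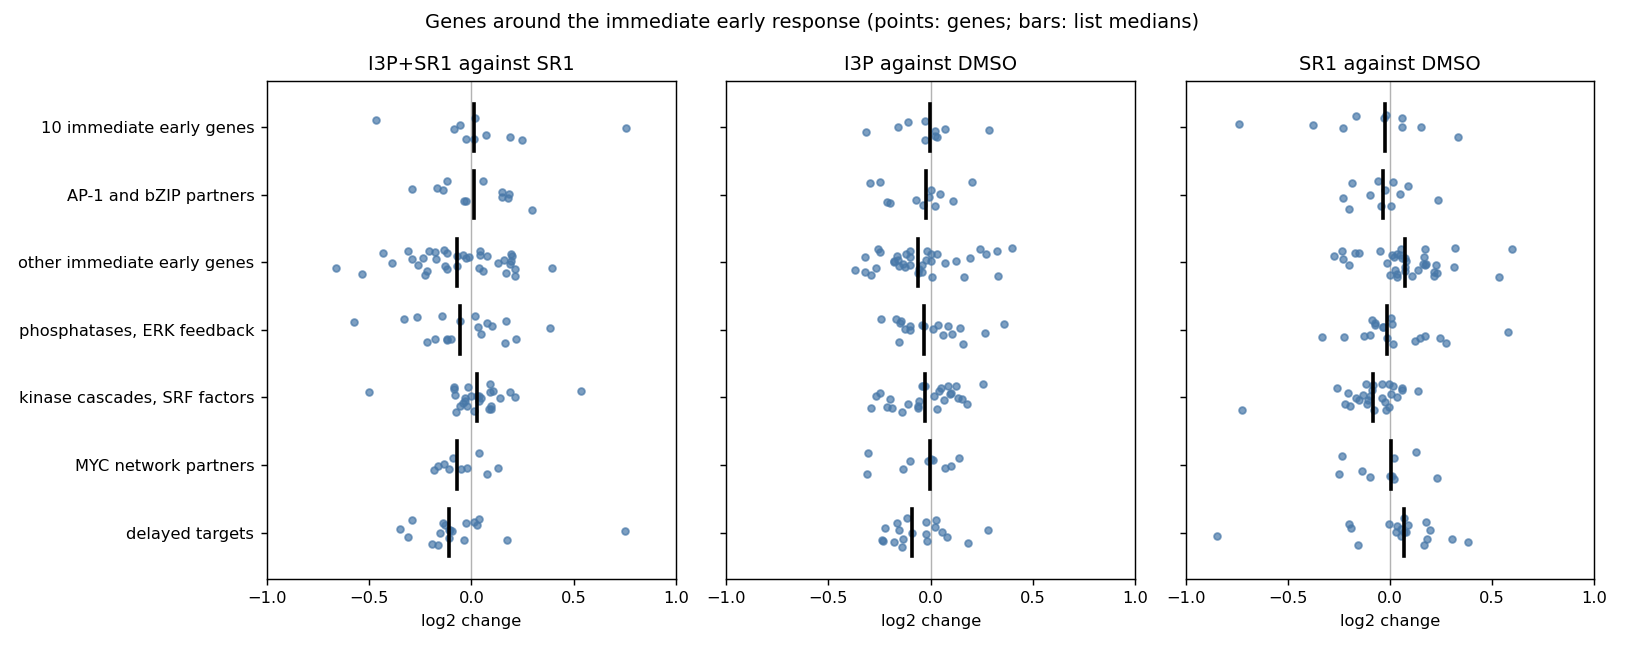
Log2 change (horizontal axis) of the measured genes of each list (rows, 1 point per gene, shifted vertically for visibility, with a bar at the list's median) in I3P+SR1 against SR1, I3P against DMSO and SR1 against DMSO. All list medians lie between -0.11 and 0.071, and IER3 is the point of the top row at 0.76, 0.29 and -0.74.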

How the data were processed

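The deposited values are log2 expression values, made with the oligo package and RMA, per the submitters' processing notes. Per the labels' protocols, 100 ng of total RNA was labelled with the WT PLUS kit. RMA sets all arrays to 1 distribution, so values are relative, and it compresses differences of dim genes. The genome build is not given in the sources used here. Of 16510 rows, 14096 had 1 symbol in the platform annotation, 795 had several and 1619 were not listed. The row with the highest mean was kept for each of 14040 genes (52 had several rows).

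Groups were compared on the deposited log2 values with limma 3.58.1 in R 4.3.3, in 1 model over the 4 groups without the replicate number, with Benjamini-Hochberg adjustment over all genes and a threshold of 0.05. The same model with the replicate number as a block was the alternative. Intervals are from the model without the replicate number unless the block is named. Same-numbered arrays deviated together in every pair where I3P alone was not involved, with correlations of 0.37 to 0.65 for I3P+SR1 with SR1, of 0.22 to 0.52 for I3P+SR1 with DMSO, and of 0.30 to 0.52 for SR1 with DMSO. They did not in all pairs with I3P alone, at -0.088 to 0.55 for I3P+SR1 with I3P and -0.066 to 0.51 for I3P with DMSO. The labels call the arrays biological replicates. Other settings were array weights, a trended robust prior, median centring, a filter on dim genes, other rows, the title series, and leaving out each array. Scripts were tested on simulated data. All 10 members are named, listed genes only where they passed or where the text says so, and the 5 genes most like IER3 by Pearson r. Members and lists were chosen with earlier results of these data known. Promoters came from a RefSeq table, read with Python 3.11.15.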

Additional observations from a re-analysis of the deposited data

Results flagged for a closer look

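IER3 in I3P+SR1 had 1 array away from the other 3. Replicate 4 was at 11.24, above 10.94, 10.89 and 10.89, and its gap to the nearest array was 0.850146 of the range of the group, above Dixon's critical value at 95% for 4 arrays. Of 40 groups of member values tested in this way, 1 was so marked, and chance marks about 1 in 20. Without that array the change of IER3 kept its direction in I3P+SR1 against SR1.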

How the results depend on the processing

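The call on IER3 depended on the replicate block, the variance prior and the array weights. In SR1 against DMSO and in I3P+SR1 against SR1, 1 member (IER3) passed with the replicate block, with the block and no I3P array of replicate 1, with a trended robust prior and with array weights, and 0 passed otherwise. Without any 1 array its change lay between -0.82 and -0.67 and between 0.68 and 0.84 in these comparisons. In SR1 against DMSO, 23 genes passed with group means alone, 45 with the replicate block, 80 with the block and no I3P array of replicate 1, 39 with array weights, 6 with only the compared groups, 4 within series SLI, 1 within SMI, and 9 to 25 without 1 array. In I3P+SR1 against SR1, 16 genes passed with group means alone, 45 with the replicate block, 104 with the block and no I3P array of replicate 1, 27 with the title series as a block, 7 with only the compared groups, 1 within series SLI, 1 within SMI, and 10 to 18 without 1 array. Within SLI, 1 gene passed in I3P+SR1 against I3P and 0 in the interaction. The causes were not tested. The replicate block changed no other call on a member. Over 37 member values and 28 other settings, 950 kept direction and side of the threshold, 8 passed only under the other setting (all IER3), 75 turned sign and 0 lost a call. None of the values that turned sign had passed. With the block and without the I3P array of replicate 1, the sign turned in I3P against DMSO for FOS (-0.063), JUN (0.035), ATF3 (0.013). Within title series SLI, the sign turned in I3P against DMSO for FOS (-0.056), JUNB (-0.018), DUSP1 (-0.070) and in SR1 against DMSO for IER2 (-0.19) and in I3P+SR1 against SR1 for IER2 (0.12), DUSP1 (0.0077) and in I3P+SR1 against DMSO for IER3 (-0.087), MYC (0.024) and in the interaction for MYC (0.14). Within title series SMI, the sign turned in I3P against DMSO for JUN (0.081), ATF3 (0.12) and in SR1 against DMSO for EGR1 (0.023), FOS (0.23), FOSL1 (0.0027), JUNB (0.062) and in I3P+SR1 against SR1 for FOS (-0.28), FOSL1 (-0.065), JUNB (-0.090) and in I3P+SR1 against I3P for MYC (-0.14). With array weights, the sign turned in I3P against DMSO for ATF3 (0.089), DUSP1 (-0.054) and in SR1 against DMSO for IER2 (-0.020) and in I3P+SR1 against SR1 for DUSP1 (0.0031). Leaving out 1 array turned the sign of further values. In I3P against DMSO, these ranges were ATF3 -0.57 to 0.27, DUSP1 -0.076 to 0.10, EGR1 -0.13 to 0.24, FOS -0.075 to 0.080, FOSL1 -0.13 to 0.090, JUN -0.11 to 0.028, JUNB -0.013 to 0.077. In I3P+SR1 against DMSO, these ranges were IER3 -0.064 to 0.084. In I3P+SR1 against SR1, these ranges were ATF3 -0.30 to 0.66, DUSP1 -0.12 to 0.069, FOS -0.15 to 0.30, FOSL1 -0.041 to 0.075, IER2 -0.16 to 0.013, JUN -0.10 to 0.0037, JUNB -0.035 to 0.087. In SR1 against DMSO, these ranges were ATF3 -0.85 to 0.0010, EGR1 -0.46 to 0.035, FOSL1 -0.13 to 0.048, IER2 -0.026 to 0.12, JUNB -0.065 to 0.025. Restricting the test to brighter genes removed FOS, the 1 member below that filter. With 4 arrays a group, no change in a member other than IER3 passed the adjustment over all 14040 genes under the settings run.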
